A study of Mus musculus with 10 samples.

Results

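The genes that write, copy and erase cytosine methylation were compared between fibroblasts, incompletely reprogrammed cells and iPS lines. They are the DNA methyltransferases *Dnmt1*, *Dnmt3a*, *Dnmt3b* and *Dnmt3l* and the hemimethylation readers *Uhrf1* and *Uhrf2*. The others are the dioxygenases *Tet1*, *Tet2* and *Tet3* and the glycosylase *Tdg*. All were chosen by name, not by their values, and are 10 of the 18901 genes listed for the series. All 10 were among the 17075 genes tested, the genes that reached 10 in 2 or more libraries. Poly(A) RNA was sequenced from 5 mouse lines, each a cross of MF1 and 129, with 2 libraries per line. Oct4-GFP MEF are embryonic fibroblasts with a fluorescent reporter of *Oct4*, grown in DMEM with serum and taken at passages 2 and 4. The 'control' iPS line, 'rNetrin-1-derived' clones 1 and 2 and the pre-iPS line come from reprogramming with Oct4, Sox2, Klf4 and c-Myc (OSKM) retroviruses, were grown in KSR medium with LIF, and were taken at passages 5 and 25. The clones were derived with recombinant Netrin-1, a secreted guidance cue, in the medium. The pre-iPS line stands for incomplete reprogramming: its virus-borne factors are still expressed and its GFP is off. Each reprogrammed line is 1 line at 2 passages, so the libraries of a line are not independently derived clones. In comparisons of lines the limma standard errors and p-values measure the spread between the 2 libraries within a line. They do not measure the spread among the iPS lines.

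DNA methylation is laid down on new sites by Dnmt3a and Dnmt3b, which the catalytically inactive Dnmt3l assists in germ cells and early embryonic cells. Dnmt1 copies it after replication, at hemimethylated sites to which Uhrf1 brings it. Tet enzymes oxidize methylcytosine, and Tdg excises the more oxidized bases, which base excision repair then replaces. Pluripotent stem cells are known for high levels of the *de novo* enzymes and of *Tet1*, while somatic cells rely mostly on the copying machinery.

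Differences within this gene group were large. In pre-iPS cells the copying genes *Dnmt1* and *Uhrf1* stood close to the iPS level, whereas *Dnmt3l* was 187-fold, *Dnmt3b* 6.61-fold, *Tet1* 4.06-fold and *Dnmt3a* 2.50-fold lower than in iPS cells. These 4 of 10 genes fell in pre-iPS cells, where 11.6% of all genes tested were called lower. In MEF 6 of 10 fell (*Dnmt3l*, *Dnmt3b*, *Tet1*, *Uhrf1*, *Dnmt1* and *Tet2*), where 26.6% of all genes tested were called lower. When both rNetrin-1-derived clones were set against the control line, none of the 10 was called, where 2.11% of all genes tested were. A gene was called at an adjusted p under 0.05 (limma, Benjamini-Hochberg over all genes tested) and a log2 difference of at least 1. For pre-iPS cells and MEF, fell and rose mean called lower or higher than in iPS cells, not a change over time. Fold changes are on the log2(value + 1) scale, and values are reads per gene after the authors' adjustment of all libraries to one size (pseudo-counts). The pre-iPS and MEF comparisons share the 6 iPS libraries, so their differences are not independent of each other. In bulk RNA fewer expressing cells and less RNA per cell cannot be told apart.

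The libraries held 38110410 to 52946856 reads on genes, and each member had at least 167 reads in every library, except *Tdg* and, in MEF and pre-iPS cells, *Dnmt3l*. The line labels were checked against markers. Of 8 fibroblast markers 8 were called higher in MEF than in iPS cells, where 21.6% of all genes were called higher, led by *Postn* (log2 difference 8.30), *Col3a1* (7.50), *Col1a1* (7.27) and *Col1a2* (6.67). Of 6 pluripotent markers 4 were called lower in pre-iPS cells, where 11.6% of all genes tested were called lower. They were *Dppa3*, *Esrrb*, *Nanog* and *Tdgf1*, while *Zfp42* (log2 difference 0.02) and *Fgf4* (−0.23) were not called. The lines also differed in sex-linked genes. *Xist*, the RNA that coats the inactive X chromosome, was at 16029.9 to 22076.3 in pre-iPS and clone 2, at 143.7 to 317.2 in the control line and clone 1, and at 52734.6 and 52989.0 in MEF. The Y-linked *Ddx3y* had 1 or 2 reads per library in pre-iPS and clone 2, 1440 to 1846 in the control line and clone 1, and 302 and 367 in MEF. The part of this difference in the results below was not tested.

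The promoters of the genes that differ most are shown first because these genes act on CpG sites and carry such sites at their own starts. Each run gives the 250 bases before a RefSeq transcription start on GRCm38.p6, read 5′ to 3′ on the strand of the gene, with CpG in capitals. For *Dnmt3l* the most upstream of 3 listed starts is given (chr10:78042037-78042286, plus strand), for *Dnmt3b* the only one (chr2:153649199-153649448, plus strand), for *Tet1* the only one (chr10:62887325-62887574, minus strand), and for *Dnmt1*, which was not called in pre-iPS cells, the start with most CpG (chr9:20952624-20952873, minus strand).
Dnmt3l: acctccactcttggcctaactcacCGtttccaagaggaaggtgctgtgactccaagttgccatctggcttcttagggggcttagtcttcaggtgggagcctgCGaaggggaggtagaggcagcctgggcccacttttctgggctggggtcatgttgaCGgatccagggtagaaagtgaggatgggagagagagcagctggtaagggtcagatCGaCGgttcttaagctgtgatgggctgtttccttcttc
Dnmt3b: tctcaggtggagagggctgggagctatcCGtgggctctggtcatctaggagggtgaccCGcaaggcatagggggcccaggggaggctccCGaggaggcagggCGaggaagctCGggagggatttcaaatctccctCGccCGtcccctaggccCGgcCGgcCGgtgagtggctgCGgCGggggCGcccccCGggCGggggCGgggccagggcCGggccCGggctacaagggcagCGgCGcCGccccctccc
Tet1: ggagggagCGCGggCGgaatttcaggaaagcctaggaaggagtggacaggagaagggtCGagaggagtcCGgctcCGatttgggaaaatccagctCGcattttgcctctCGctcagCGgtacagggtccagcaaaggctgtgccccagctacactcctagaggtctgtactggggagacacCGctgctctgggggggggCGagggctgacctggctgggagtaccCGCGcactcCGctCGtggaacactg
Dnmt1: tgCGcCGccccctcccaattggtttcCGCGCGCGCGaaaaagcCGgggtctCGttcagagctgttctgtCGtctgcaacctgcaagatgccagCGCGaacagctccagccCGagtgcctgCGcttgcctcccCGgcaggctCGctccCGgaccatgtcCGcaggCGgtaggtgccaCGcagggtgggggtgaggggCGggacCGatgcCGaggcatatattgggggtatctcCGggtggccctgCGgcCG
The *Dnmt3l* window held 5 CpG, and the windows before its other starts held 4 and 3. The *Dnmt3b* window held 21, that of *Tet1* 15 and that of *Dnmt1* 26, while the windows before the other *Dnmt1* starts held 2 and 7, against a median of 6 over 32851 promoter windows of the same length. The letters GGGCGG, a box for Sp and Klf factors that itself holds a CpG, occurred on either strand 3 times at *Dnmt3b*, once at *Tet1*, 2 times at the *Dnmt1* start shown and 0 times at the *Dnmt3l* start shown, and 32.7% of all windows held it. The windows before the other *Dnmt3l* starts held it 2 and 0 times, and those before the other *Dnmt1* starts 0 times each. The contrast between these 2 genes thus depends on the start chosen. The octamer ATGCAAAT, searched on both strands, was in none of the 17 windows of the 10 genes and in 1.6% of all windows. These letter matches are descriptions and not measured binding.

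The copying genes are described first. *Dnmt1* (chr9:20907209-20959888, minus strand) was at 17696.8 and 17970.3 in the control line at passages 5 and 25, at 14589.2 and 19793.0 in clone 1, at 20040.0 and 20193.7 in clone 2, at 16222.7 and 21470.4 in pre-iPS cells, and at 7154.8 and 7331.1 in MEF. The pre-iPS libraries lay on both sides of the control libraries and only MEF stood apart from every other line. The pre-iPS difference from iPS cells was 0.03 ± 0.13 (log2 difference ± SE; adjusted p = 0.87 by limma), and that of MEF was −1.33 ± 0.13 (adjusted p = 1.4e-05), which was −0.95 after scaling to housekeeping genes and then missed the fold threshold.

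*Uhrf1* (chr17:56303321-56323486, plus strand), whose protein recognizes hemimethylated CpG, was at 18333.0 and 17460.3 in the control line, 14318.4 and 16536.1 in clone 1, 18147.7 and 18134.5 in clone 2, 12828.6 and 14227.8 in the pre-iPS line, with 3851.9 and 3799.2 in MEF. Each pre-iPS library lay a small step under the lowest iPS library, and MEF lay far under both. The difference was −0.34 ± 0.07 for pre-iPS (adjusted p = 0.00613 by limma), under the fold threshold, and −2.16 ± 0.07 for MEF (adjusted p = 3.56e-08). Its paralog *Uhrf2* (chr19:30030513-30093722, plus strand) ran the other way in fibroblasts. It was at 3079.5 to 3821.2 in the 6 iPS libraries, 2469.8 and 2472.4 in pre-iPS cells, with 3946.5 and 3955.1 in MEF. MEF therefore held the highest and pre-iPS the lowest *Uhrf2* values without overlap. The pre-iPS difference was −0.48 ± 0.07 (adjusted p = 0.000991 by limma), and the MEF difference of 0.20 ± 0.07 (adjusted p = 0.0252) turned to −0.06 under quantile normalization.

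**Figure D1:**
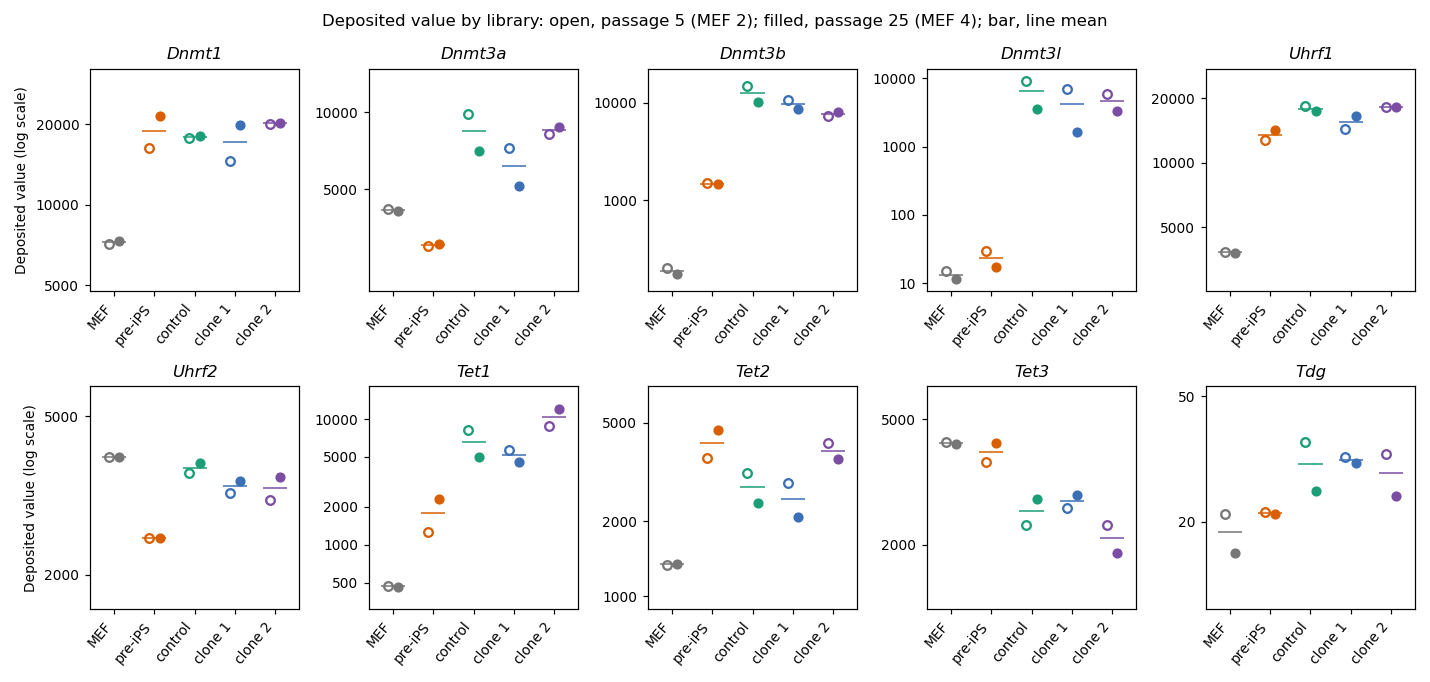
Deposited value (log axis, different range in each panel) of the 10 genes in each of the 10 libraries, by line. Open points are passage 5 (passage 2 for MEF), filled points passage 25 (passage 4 for MEF) and bars the mean of the 2 libraries. Dnmt3l lies at 11.7 to 29.6 in MEF and pre-iPS cells and at 1661.8 to 9247.3 in iPS cells, while Dnmt1 in pre-iPS cells lies at the level of the iPS lines.

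Among the *de novo* genes the accessory factor *Dnmt3l* (chr10:78041947-78063622, plus strand) had the widest range. It was at 9247.3 and 3586.5 in the control line at passages 5 and 25, at 6861.7 and 1661.8 in clone 1, at 5936.8 and 3307.5 in clone 2, at 29.6 and 17.3 in pre-iPS cells, and at 15.2 and 11.7 in MEF. The pre-iPS libraries had 18 and 29 reads and the MEF libraries 11 and 13, against 1619 to 9563 in the iPS libraries. The pre-iPS difference from iPS was −7.55 ± 0.55 (adjusted p = 2.71e-05 by limma) and that of MEF −8.27 ± 0.55 (adjusted p = 1.38e-06). Pre-iPS against MEF gave 0.72 ± 0.67 (adjusted p = 0.361 by limma), which did not pass. The gene overlaps *Aire* on the other strand over 2.24% of its exon bases, and the library kit does not mark strand. *Aire* was at 196.1 to 931.2 in the iPS libraries, 48.97 and 72.43 in pre-iPS cells, with 1.07 and 2.33 in MEF.

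*Dnmt3b* (chr2:153649450-153687730, plus strand), the main *de novo* enzyme of the early embryo, was at 14993.1 and 10141.2 in the control line, 10789.0 and 8723.8 in clone 1, 7405.7 and 8128.6 in clone 2, 1487.4 and 1462.3 in pre-iPS cells, with 200.3 and 176.6 in MEF. Unlike *Dnmt3l* it stood at 3 separate levels, with pre-iPS cells between the others. The difference from iPS was −2.72 ± 0.15 for pre-iPS (adjusted p = 5.3e-06 by limma) and −5.69 ± 0.15 for MEF (adjusted p = 1.07e-08), and pre-iPS exceeded MEF by 2.96 ± 0.18 (adjusted p = 1.3e-06). Of its 50-base stretches 9.81% also occur in transcripts of *Dnmt3c*, a gene not analysed here.

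*Dnmt3a* (chr12:3806007-3914443, plus strand), the *de novo* enzyme also used in somatic tissue, differed least of the 3. It was at 9895.1 and 7055.2 in the control line, 7229.3 and 5146.6 in clone 1, 8262.6 and 8742.4 in clone 2, 3008.5 and 3050.5 in pre-iPS cells, with 4194.6 and 4104.4 in MEF. Here pre-iPS cells, not MEF, were lowest, and neither overlapped the iPS libraries. The pre-iPS difference was −1.32 ± 0.15 (adjusted p = 0.000257 by limma). The MEF difference of −0.87 ± 0.15 (adjusted p = 0.000545) missed the fold threshold and passed it under quantile normalization (−1.14). Pre-iPS against MEF gave −0.45 ± 0.18 (adjusted p = 0.0486 by limma).

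The erasers differed from one another. *Tet1* (chr10:62804570-62908996, minus strand), the main Tet gene of pluripotent cells, was at 8108.1 and 4972.6 in the control line, 5677.3 and 4576.9 in clone 1, 8808.0 and 12104.6 in clone 2, 1261.9 and 2313.1 in pre-iPS cells, with 472.1 and 464.5 in MEF. Pre-iPS cells again lay between MEF and iPS cells, and clone 2 was the highest line with no overlap. The difference from iPS was −2.02 ± 0.25 for pre-iPS (adjusted p = 0.000475 by limma) and −3.89 ± 0.25 for MEF (adjusted p = 1.25e-06), and pre-iPS exceeded MEF by 1.86 ± 0.31 (adjusted p = 0.000636).

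*Tet2* (chr3:133463679-133545139, minus strand), prominent in blood and also present in pluripotent cells, was at 3136.9 and 2375.7 in the control line, 2850.2 and 2089.9 in clone 1, 4137.7 and 3570.1 in clone 2, 3602.2 and 4663.6 in pre-iPS cells, with 1333.7 and 1350.9 in MEF. The pre-iPS libraries overlapped the upper iPS libraries, and MEF lay below every other library. The pre-iPS difference was 0.48 ± 0.16 (adjusted p = 0.0403 by limma, 0.0158 to 0.298 over the alternatives), under the fold threshold, and the MEF difference −1.13 ± 0.16 (adjusted p = 0.000145), which was −0.75 after scaling to housekeeping genes and then missed the fold threshold. *Tet3* (chr6:83362373-83459084, minus strand), the Tet gene of oocytes and many somatic cells, was at 1880.0 to 2882.3 in the 6 iPS libraries, 3665.5 and 4210.4 in pre-iPS cells, with 4226.0 and 4168.6 in MEF. Pre-iPS cells and MEF overlapped and both lay above every iPS library. The difference was 0.69 ± 0.11 for pre-iPS (adjusted p = 0.00145 by limma) and 0.78 ± 0.11 for MEF (adjusted p = 0.000142), both under the fold threshold, and −0.10 ± 0.13 between pre-iPS and MEF (adjusted p = 0.538).

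*Tdg* (chr10:82629828-82650799, plus strand) had 15 to 37 reads per library. Its 50-base stretches, the length of the reads, occur to 41.2% in transcripts of other genes, above all the pseudogene *Tdg-ps*, so the level is uncertain where such reads were dropped or split. It was at 24.2 to 35.8 in the iPS libraries, 21.4 and 21.1 in pre-iPS cells, with 21.1 and 15.9 in MEF. The pre-iPS difference was −0.47 ± 0.26 (adjusted p = 0.184 by limma), and the MEF difference of −0.67 ± 0.26 (adjusted p = 0.0389) turned to 0.47 under quantile normalization. *Uhrf1* shared 15.4% of its stretches, mostly with *Gm5648*, and the other members outside *Dnmt3b* shared under 1%.

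**Figure D2:**
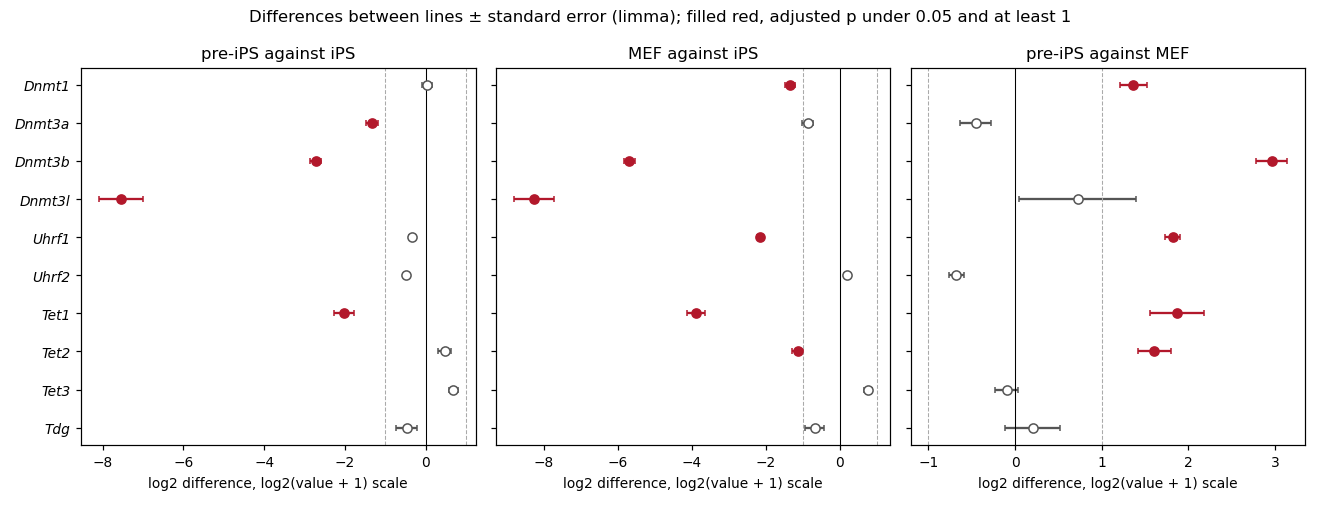
Log2 differences (x axis, log2(value + 1) scale) of the 10 genes between lines, with bars of 1 standard error from limma. Filled red points passed an adjusted p under 0.05 and a log2 difference of at least 1 (dashed lines). Pre-iPS cells have 4 such genes against iPS cells, all lower, MEF have 6, all lower, and pre-iPS cells have 5 against MEF, all higher.

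By the adjusted p alone, 8 of 10 members passed in pre-iPS against iPS, where 39.6% of all genes did, and 10 of 10 in MEF against iPS, where 79.3% did. The median log2 difference of the 10 was −0.47 in pre-iPS and −1.23 in MEF, beside 0.00 and −0.09 over all genes tested. Against MEF, pre-iPS cells had 5 of 10 members called higher (*Dnmt3b*, *Tet1*, *Uhrf1*, *Tet2* and *Dnmt1*, at 2.96, 1.86, 1.82, 1.61 and 1.37), where 22.4% of all genes were called higher. In an exact two-sided permutation test of libraries, *Dnmt3l*, *Dnmt3b*, *Tet1* and *Dnmt3a* each gave p = 0.0357 in pre-iPS against iPS, the smallest that 2 libraries against 6 allow. *Uhrf1*, *Uhrf2*, *Tet3* and *Tdg* gave the same exact p, so this test does not single out the called genes. Scaling matters for MEF. Scaling to *Gapdh*, *Actb*, *Hprt* and *Tbp* moved the median of all genes from −0.09 to 0.31 in MEF against iPS and from 0.06 to −0.34 in pre-iPS against MEF. Called genes split into 3690 higher and 4547 lower in MEF as deposited, and into 5123 and 3644 after that scaling. In pre-iPS against iPS the split was 804 higher and 1977 lower as deposited and 1483 and 1426 after quantile normalization. The 4 pre-iPS calls were kept under both, and the members called in MEF numbered 5 after housekeeping scaling, *Tet3* (1.17) being called and *Dnmt1* and *Tet2* not.

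Between genes, levels were compared per kilobase of exon. In iPS cells *Uhrf1* was highest, at 4030 ± 362 per kilobase (mean ± SD, n = 6), followed by *Dnmt1* at 2490 ± 291, *Dnmt3b* at 1960 ± 536 and *Dnmt3l* at 1710 ± 927. The last 2 do not differ beyond their spread, and they changed places when the length of the longest transcript was used. *Tet1* (477 ± 186), *Dnmt3a* (464 ± 98.3) and *Uhrf2* (401 ± 31.2) also lay within their spread, above *Tet2* (179 ± 44.9) and *Tet3* (148 ± 22.4). Their order depended on the length too: by the longest transcript *Uhrf2* (975) and *Dnmt3a* (797) stood above *Tet1* (513). In pre-iPS cells *Uhrf1* (3180 ± 232 per kilobase, n = 2) and *Dnmt1* (2550 ± 503) kept the first places while *Dnmt3l* stood at 7.84 ± 2.91. Within the Tet family the order differed between lines: *Tet1* was first in iPS cells, and in pre-iPS cells *Tet2* (245 ± 44.5) and *Tet3* (236 ± 23.1) were level and above *Tet1* (116 ± 48.1). In MEF *Tet3* (251 ± 2.43) was first, above *Tet2* (79.6 ± 0.721) and *Tet1* (30.3 ± 0.349). The 2 MEF libraries were much closer to each other than those of the other lines. The chi-square per degree of freedom of their reads was 2.76, against 36.3 to 50.9. Their SD may therefore not give the spread between independent MEF cultures.

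**Figure D3:**
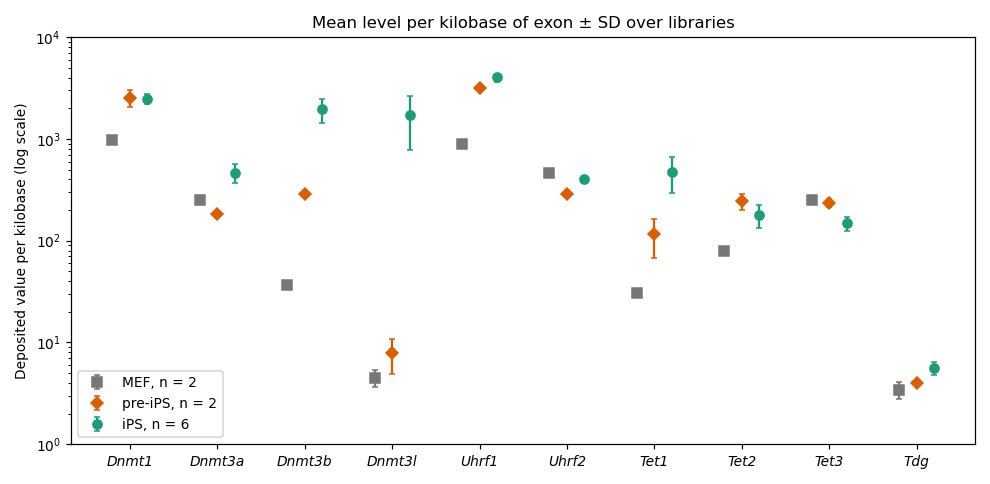
Mean deposited value per kilobase of merged exon (log axis) of the 10 genes in MEF (squares, n = 2), pre-iPS cells (diamonds, n = 2) and the iPS libraries (circles, n = 6), with bars of 1 SD over libraries. Pre-iPS cells lie with iPS cells for Dnmt1 and Tet2, with MEF for Dnmt3l and Tet3, and between the others for Dnmt3b and Tet1.

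Whether derivation with rNetrin-1 left a mark on this gene group was asked by comparing both clones with the control line. By limma, 0 of 10 members were called, where 2.11% of all genes tested were, and 1 of 10 had an unadjusted p under 0.05. EdgeR and DESeq2 on the recovered reads also called 0. The gene with an unadjusted p under 0.05 was *Dnmt3b* (−0.51 ± 0.15, adjusted p = 0.123 by limma). Its difference was −0.79 to −0.23 over the alternatives. It passed the adjusted p alone in at least 1 of them, always under the fold threshold. The members' differences ranged from −0.57 (*Dnmt3l*) to 0.19 (*Tet1*), with a median of −0.09 beside −0.01 over all genes. With 4 libraries against 2 the exact permutation test cannot go below p = 0.0667, and *Dnmt3b* gave p = 0.133 in it.

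Each clone was also set against the control line alone. Clone 1 had 0 of 10 members called by limma, edgeR and DESeq2 (1.41% of all genes by limma), with 2 at an unadjusted p under 0.05, *Dnmt3a* at −0.45 ± 0.18 and *Uhrf1* at −0.22 ± 0.09 (adjusted p = 0.247 and 0.251 by limma). Clone 2 had 0 likewise (2.42% of all genes), with 2 at an unadjusted p under 0.05, *Dnmt3b* at −0.67 ± 0.18 (adjusted p = 0.0804 by limma) and *Tet2* at 0.49 ± 0.19 (adjusted p = 0.212). For *Dnmt3b* the clone 2 difference was −0.95 to −0.39 over the alternatives. It passed the adjusted p alone in at least 1 of them, always under the fold threshold. Both clone 2 libraries held less *Dnmt3b* than any other iPS library. Outside the members, 2 genes of the lists below were called, *Apobec1* higher in clone 1 (1.06 ± 0.18, adjusted p = 0.0274 by limma) and *Zbtb38* higher in clone 2 (1.05 ± 0.11, adjusted p = 0.00272), named after their values were seen.

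The clones were also compared with each other. In clone 2 against clone 1, limma called 0 of 10 (0.966% of all genes), 5 of 10 had an unadjusted p under 0.05, edgeR called 0 and DESeq2 called 1. *Tet1* was the gene DESeq2 called, at 1.03 (adjusted p = 0.0205), and limma gave 1.02 ± 0.31 (adjusted p = 0.157, up to 0.581 over the alternatives). *Tet2* was 0.65 ± 0.19 and *Tet3* −0.40 ± 0.13 (adjusted p = 0.144 and 0.188 by limma). Beside this, the pluripotent markers *Nanog* (1.37), *Esrrb* (2.35) and *Zfp42* (2.27) were called higher in clone 2 than in clone 1, and these lines also differ in *Xist* and the Y-linked genes as given above. The part of either in the *Tet1* values was not tested.

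Of the 10 genes *Dnmt3l* was the one called by passage. Over the pre-iPS and iPS lines with the line as a block, 1 of 10 members fell from passage 5 to passage 25, where 1.29% of all genes tested were called lower. *Dnmt3l* fell by 1.25 ± 0.20 on the log2 scale (adjusted p = 0.0128 by limma), and the passage 25 library was the lower in 4 of 4 lines. Its value at passage 5 was 2.58 times that at passage 25 in the control line, 4.13 times in clone 1, 1.79 times in clone 2 and 1.71 times in pre-iPS cells. The iPS libraries of passage 5 (5936.8 to 9247.3) did not overlap those of passage 25 (1661.8 to 3586.5). The drop was 0.98 without either clone 1 library (adjusted p = 0.0378 and 0.035 by limma), under the fold threshold, and without the variance trend its adjusted p was 0.0744, the highest over the alternatives (lowest 0.000288). *Aire*, which shares exon bases with *Dnmt3l*, was also lower at passage 25 in 4 of 4 lines, for example 931.2 against 253.4 in the control line. Markers of other cell types were called lower at passage 25 too, the trophoblast markers *Hand1* (−1.40) and *Eomes* (−1.02), 2 of 5, and the macrophage markers *Csf1r* (−1.48) and *Cd68* (−1.07), 2 of 6, named after their values were seen. The remaining macrophage markers were not called, *Lyz2* (−0.77), *C1qa* (−0.52) and *Tyrobp* (−0.22) being lower and *Emr1* (0.88) higher. Each of these was at 10.91 or less in every library of the reprogrammed lines. *Apobec2* of the deaminases was also called lower (−1.15). Their part in the *Dnmt3l* values was not tested.

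The catalytic partners were not called. *Dnmt3a* and *Dnmt3b* were lower at passage 25 in the control line (−0.49 and −0.56) and clone 1 (−0.49 and −0.31), and differed by at most 0.13 in clone 2 and pre-iPS cells. Over the 4 lines they gave −0.22 ± 0.11 and −0.19 ± 0.11 (adjusted p = 0.233 and 0.288 by limma). The *Tet1* differences varied in sign, at −0.71 in the control line, −0.31 in clone 1, 0.46 in clone 2 and 0.87 in pre-iPS cells. *Dnmt1* gave 0.22 ± 0.09 (adjusted p = 0.147 by limma), with 0.44 in clone 1 and 0.40 in pre-iPS cells.

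**Figure D4:**
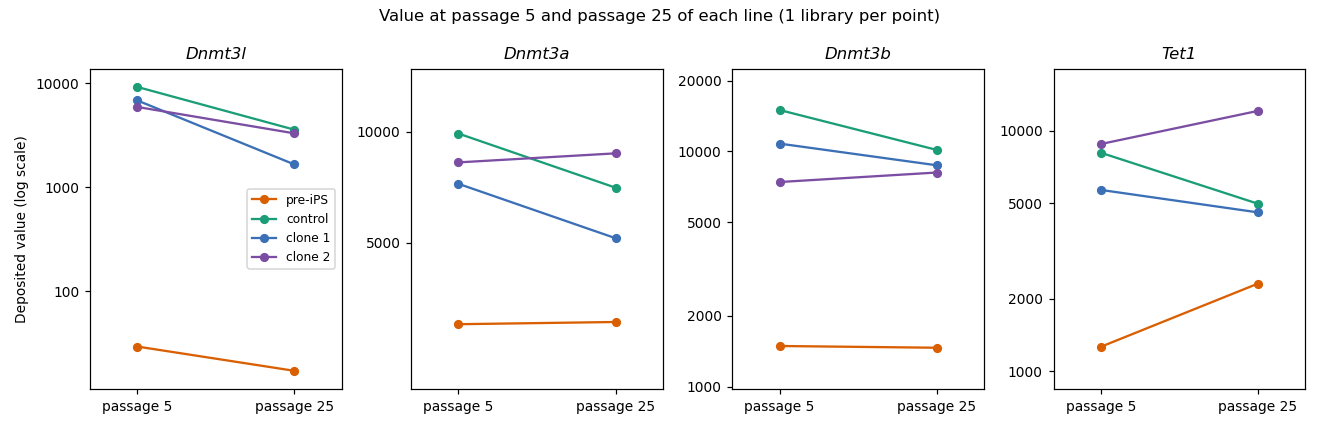
Deposited value (log axis, different range in each panel) of Dnmt3l, Dnmt3a, Dnmt3b and Tet1 at passage 5 and passage 25, with 1 line per cell line and 1 library per point. Dnmt3l goes down in all 4 lines, while Tet1 goes down in the control line and clone 1 and up in clone 2 and pre-iPS cells.

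The lines were ordered by mean value for each gene. *Dnmt3b* and *Uhrf1* had the control line or clone 2 first, then the other iPS lines, then pre-iPS cells and MEF, with no overlap from the iPS lines to pre-iPS cells nor from there to MEF. *Tet1* and *Dnmt3l* had the same last places, although the *Dnmt3l* values of 17.3 in pre-iPS cells and 15.2 in MEF were nearly level. For *Dnmt3a* and *Dnmt3l* each iPS line overlapped the next in the order, and for *Dnmt1* clone 2 lay above the control line and clone 1, which overlapped. *Tet2* had pre-iPS cells first and overlapping with clone 2, and MEF last without overlap. *Tet3* had MEF and pre-iPS cells first and overlapping, *Uhrf2* had MEF first and pre-iPS cells last, and *Tdg* had the 3 iPS lines overlapping above pre-iPS cells and MEF.

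Over the 10 libraries, the genes whose log2(value + 1) followed a member most closely were named for the 4 members with the widest range of line means. For *Dnmt3l* they were *Calb2* (Pearson r = 0.994), *Syce3* (0.993) and *Otx2* (0.992), for *Dnmt3b* they were *Arid3b* (0.996), *Hdc* (0.993) and *Prex2* (0.993). For *Tet1* they were *Pxt1* (0.996), *1700028B04Rik* (0.995) and *Gprasp2* (0.995), and for *Uhrf1* they were *Mcmbp* (0.998), *Hsp90ab1* (0.998) and *Naa15* (0.998). *Dnmt1* was at r = 0.965 with *Uhrf1* and at 0.581 with *Dnmt3l*, and *Tet3* at −0.918 with *Dnmt3l*. The 10 points are 5 lines at 2 passages each, and the differences between lines dominate these values.

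Genes whose promoters are kept silent by methylation in somatic cells were counted next, though methylation itself was not measured. Of 12 such germline genes 11 fell in pre-iPS cells and 11 fell in MEF, where 11.6% and 26.6% of all genes tested were called lower. The median log2 difference was −5.74 in pre-iPS and −6.36 in MEF, or −5.37 and −5.53 with genes at 0 reads set to their bound of 3 reads per library. *Dazl*, an RNA-binding protein of germ cells, was at 204.3 to 2133.2 in the iPS libraries, 0.957 and 3.06 in pre-iPS cells, with 2.16 and 5.77 in MEF. *Mael*, of the piRNA pathway, was at 325.3 to 1062.7, against 1.92 and 3.06 in pre-iPS cells. *Stk31* had 0 reads in both pre-iPS libraries and was at 115.0 to 656.8 in iPS cells, and *Hormad1*, of the meiotic chromosome axis, was at 52.35 to 587.8 against 1.02 or less in pre-iPS cells. The exceptions were *Tex19.1* in pre-iPS cells, at 2758.6 and 3528.8 within the iPS range of 1497.6 to 4082.6 while MEF stood at 5.29 and 5.91, and *Brdt* in MEF (0.02 ± 0.22, adjusted p = 0.938 by limma), both named after their values were seen. At passage 25 *Dazl* was called lower as well (−1.48 ± 0.19, adjusted p = 0.00632 by limma).

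The genes listed around maintenance methylation, cofactors and the Uhrf1-binding *Dppa3*, were set beside the copying genes. Of 12, 2 fell in pre-iPS cells, where 11.6% of all genes tested were called lower. They were *Dppa3* (−7.11) and *Hells* (−1.24), a chromatin remodeller, with a median of −0.31 over the list. *Dppa3* binds Uhrf1 but is not a helper of copying, and it is also on the list of pluripotent markers. In MEF 8 of 12 fell, where 26.6% of all genes tested were called lower, with a median of −1.49 over the list. They were led by *Dppa3* (−9.45), *Cdca7* (−2.72), *Hells* (−2.34) and *Cdca7l* (−1.84). *Dnmt1* and *Uhrf1* are also genes of dividing cells, so replication genes were set beside them. Of 14 replication genes limma, edgeR and DESeq2 each called 0 in pre-iPS cells at the fold threshold. By limma 11 of 14 had an unadjusted p under 0.05, and 11 of 14 also passed the adjusted p alone, with a median of −0.44 over the list. In MEF 11 of 14 fell, beside 26.6% of all genes tested, with a median of −1.63. They were led by *Mcm5* (−2.001), *Mcm7* (−1.93), *Mcm3* (−1.85) and *Mcm6* (−1.80). The summed value of the 14 replication genes was 98839.1 to 134692.5 in iPS libraries, 80475.8 to 93485.2 in pre-iPS cells and 41957.7 to 41983.3 in MEF. The part of replication in the *Dnmt1* and *Uhrf1* values was not tested.

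Around the erasers, 1 of 10 partners and substrates of the Tet enzymes fell in pre-iPS cells, where 11.6% of all genes tested were called lower. It was *Prdm14* (−4.39), a germline and pluripotency regulator, and in MEF *Prdm14* (−7.38) and *Cxxc4* (−1.17) fell. Of 10 base excision repair genes 2 rose in pre-iPS cells, the glycosylases *Neil2* (1.34) and *Neil1* (1.02), where 4.71% of all genes were called higher, and 1 fell, the uracil glycosylase *Ung* (−1.05). In MEF 5 of 10 fell, where 26.6% of all genes tested were called lower, with *Ung* (−2.91), *Neil2* (−2.77), *Parp1* (−2.06) and *Apex1* (−1.18) ahead. Of 6 deaminases and Gadd45 genes tested, *Apobec2* fell in pre-iPS cells (−1.99) and in MEF (−5.96), where *Apobec3* also fell (−1.13) and *Gadd45g* rose (2.29). Of all genes tested, 11.6% were called lower in pre-iPS cells. In MEF 26.6% were called lower and 21.6% higher.

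Among 8 methyl-CpG readers *Zbtb4* rose in pre-iPS cells (1.04) and MEF (2.71), and in MEF *Mbd2* rose (1.05) and the glycosylase *Mbd4* fell (−1.67). Of 10 genes that supply S-adenosylmethionine, the methyl donor, *Mat1a* fell in pre-iPS cells (−1.76) and *Mtr* rose (1.00). In MEF *Mat1a* (−4.25), *Gnmt* (−2.55) and *Ahcy* (−1.46) fell. Beside these 2 lists, 4.71% of all genes tested were called higher and 11.6% lower in pre-iPS cells. In MEF 21.6% were called higher and 26.6% lower.

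Markers of other cells were set beside these results. The summed value of 8 fibroblast markers was 22113.7 to 22876.2 in pre-iPS cells, within the 21287.1 to 35510.9 of the iPS libraries, and 2851806.3 to 2995448.7 in MEF. In pre-iPS against iPS, limma, edgeR and DESeq2 called 0 of these 8, with 3 at an unadjusted p under 0.05. Of 6 macrophage markers 5 rose in MEF, where 21.6% of all genes tested were called higher. They were led by *Lyz2* (10.06), *C1qa* (8.72), *Tyrobp* (8.58) and *Emr1* (8.53). The sum of the 6 was 12065.0 to 12130.9 in MEF against 431.8 to 1267.9 in iPS cells. Of 5 trophoblast markers *Elf5* rose (1.87) and *Hand1* (−3.93) and *Tfap2c* (−1.59) fell in pre-iPS cells, and of 5 primitive endoderm markers *Sox17* fell (−5.37). In that comparison 4.71% of all genes tested were called higher and 11.6% lower. In MEF 5 of 5 trophoblast markers fell, where 26.6% of all genes tested were called lower. They were led by *Tfap2c* (−8.02), *Elf5* (−6.82), *Eomes* (−5.03) and *Hand1* (−4.42). Among the endoderm markers *Sox17* (−6.17) and *Gata4* (−3.10) fell in MEF while *Pdgfra* (2.66) and *Dab2* (2.20) rose. The part of these cells in the members' values was not tested.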

How the data were processed

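Single reads of 50 nt from 10 poly(A) libraries were processed by the authors. The submitters' processing notes name FastQC, CASAVA 1.8.2, TopHat2 2.0.8b, HTSeq 0.5.3p9 and edgeR, and the build mm10. The values deposited by the authors are a normalized signal, read counts brought by edgeR to a common library size (pseudo-counts). All columns were mapped to a sample by their names. The reads behind the values were recovered by inverting that adjustment, and running it again gave back the deposited values within 1.58e-08%. Shares of values recovered as whole reads were 100% in each library.

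Values were tested on log2(value + 1) with limma 3.58.1 (lmFit, eBayes with trend) in R 4.3.3, with 1 mean per line over all 10 libraries and Benjamini-Hochberg adjustment over the 17075 genes that reached 10 in 2 or more libraries. Passage was tested over 8 libraries with the line as a block. The fit was tested on simulated data. The members and gene lists were chosen with earlier results of these data known. All 10 members are named, and from each list up to 4 called genes with the largest difference in pre-iPS and in MEF against iPS, other names being marked and some list genes not being reported here. Lists were described by counts, without a list test. Passage numbers in the labels pair libraries across the reprogrammed lines. Deviations of the same passage correlated in each of 6 pairs of lines (r = 0.235 to 0.504). The reported comparisons between lines did not use this pairing, and the passage entered as a block only in an alternative fit. Exon lengths, positions and shared 50-base stretches came from GENCODE for GRCm38, and promoters from RefSeq (GRCm38.p6), in which all 10 symbols matched. Alternatives were other pseudocounts, filters, scalings and variance settings, a replicate block, fits of only the lines compared, and omission of each library. EdgeR 4.0.16 (quasi-likelihood) and DESeq2 1.42.0 on the recovered reads were added after seeing the data.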

Additional observations from a re-analysis of the deposited data

Results flagged for a closer look

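Of 20 sets of libraries examined for a library standing apart (each of the 10 genes in the 6 iPS libraries and in the 4 rNetrin-1-derived libraries), 1 was found. *Dnmt1* in clone 1 at passage 5 was at 14589.2, below the 19793.0 to 20193.7 of the other 3 rNetrin-1-derived libraries, and its gap to the nearest of them was 0.938 of their range on the log2 scale, over the Dixon limit of 0.829. Chance gives about 1 such library in 20 sets.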

How the results depend on the processing

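With the passage as a replicate block, the number of members called was 4 in pre-iPS against iPS and 0 in each rNetrin-1 and clone comparison, so it changed no call. By the adjusted p alone, 8 members passed in pre-iPS against iPS and 10 in MEF against iPS. DESeq2 called 1 in clone 2 against clone 1. For passage 25 against passage 5, the count was 0 without the variance trend and 0 to 1 when single libraries were left out, being 0 without either clone 1 library. The other 164 recomputed counts were within 1.5 times the reported ones, and no called difference changed sign.

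Low read counts limit *Tdg* throughout and *Dnmt3l* in MEF and pre-iPS cells, which rest on 11 to 37 reads per library. With 1 control line, 2 rNetrin-1-derived lines and 1 pre-iPS line, the treatment, the line and the sex-linked genes that differ between lines cannot be told apart. MEF differ from the other lines in medium and passage as well. Reads in the overlap of *Dnmt3l* with *Aire* cannot be assigned to a strand. RNA levels do not give protein or methylation.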
